A study of Mus musculus with 8 samples.

Results

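The 38 genes described here code for the contractile apparatus of heart muscle and for the proteins that handle its calcium, energy and stress, and they were followed by RNA-seq in mouse embryonic stem cells (ESCs). They form a list taken from what these genes are known to do, and the list was drawn up after their high counts in the Ubn2-depleted libraries had been seen. The values of the Ubn2-depleted libraries against control therefore chose the members, and they are given below as a description without a test. All 38 were found among the 55418 genes of the count tables.

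The cells were E14, a mouse ESC line, kept on gelatin in medium with serum and leukaemia inhibitory factor, with the strain written as 12910la in the labels. Each of 4 groups had 2 libraries, namely control, Hira_KD, Ubn1_KD and Ubn2_KD. Every group received 1000 ng of a pSuper-puro plasmid, and from 24 h after transfection 1 µg/ml puromycin for 3 days removed cells without it. The plasmid of the knockdown groups expressed a short hairpin RNA against Hira, Ubn1 or Ubn2, subunits of the complex that places histone H3.3 into chromatin outside of DNA replication, and the controls, labelled wild type, received a control plasmid. The cells are a transiently transfected and selected pool, not a stable line or a clone. No source says whether the 2 libraries of a group came from separate cultures, so p-values measure only the spread between these libraries, which may be technical.

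Heart muscle contracts when myosin of the thick filament pulls on actin of the thin filament, and the troponins and tropomyosin on the thin filament let this happen only when calcium binds troponin C. Calcium leaves the sarcoplasmic reticulum through the ryanodine receptor and is pumped back by a calcium ATPase that phospholamban restrains. Many of these genes have atrial and ventricular, or fetal and adult, relatives, and undifferentiated ESCs are not known for their use.

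Total counts lay between 19710040 and 32706053 per library, and 3 counts made up between 9.17e-06% and 1.52e-05% of a library, a limit that covers counting error only. Hira RNA was at 89.4 and 97.6 CPM (the count scaled to a common depth, on library sizes adjusted by the trimmed mean of M-values, TMM) in the controls and at 10.0 and 10.4 CPM in the Hira-depleted libraries. Ubn1 RNA was at 53.0 and 44.1 CPM in the controls and at 23.8 CPM in both Ubn1-depleted libraries. Ubn2 RNA was at 50.1 and 51.7 CPM in the controls and at 30.1 and 24.6 CPM in the Ubn2-depleted libraries. Each target was lower in both of its own libraries than in both controls. The labelled cell type was checked with 12 ESC markers. Their summed level was 7491 and 7790 CPM in the controls and 6347 and 6477 CPM after Ubn2 depletion, so they stayed abundant in every library, although 4 of the 12 (Tdgf1, Dppa5a, Fgf4 and Lin28a) were called lower after Ubn2 depletion.

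In the Ubn2-depleted libraries 33 of the 38 genes were above both controls in both libraries, 3 were below both (Fabp3, Myl7 and Des) and 2 overlapped with the controls (Myl4 and Trim63). Over all 31114 genes with a count in these 4 libraries, both Ubn2-depleted libraries were above both controls for 26.4% and below both for 25.8%, and since the list was chosen on this contrast nothing is read from the difference. By the same rule 9 members were above both controls and 6 below both after Hira depletion, and 8 and 7 after Ubn1 depletion. The shares over all genes were not counted for these groups. After Ubn2 depletion the size of the fold varied widely within the list. The ratio of the group means exceeded 1.5 for 31 genes and 10 for 18, and its median was 9.33-fold, or 3.22 on the log2 scale. The genes nearest to the 1.5-fold limit were Ldb3 at 1.504-fold inside it and Atp2a2 at 1.40-fold outside it. In bulk RNA more cells of a type and more RNA per cell cannot be told apart. Whether this RNA came from the cultured cells was not tested.

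**Figure D1:**
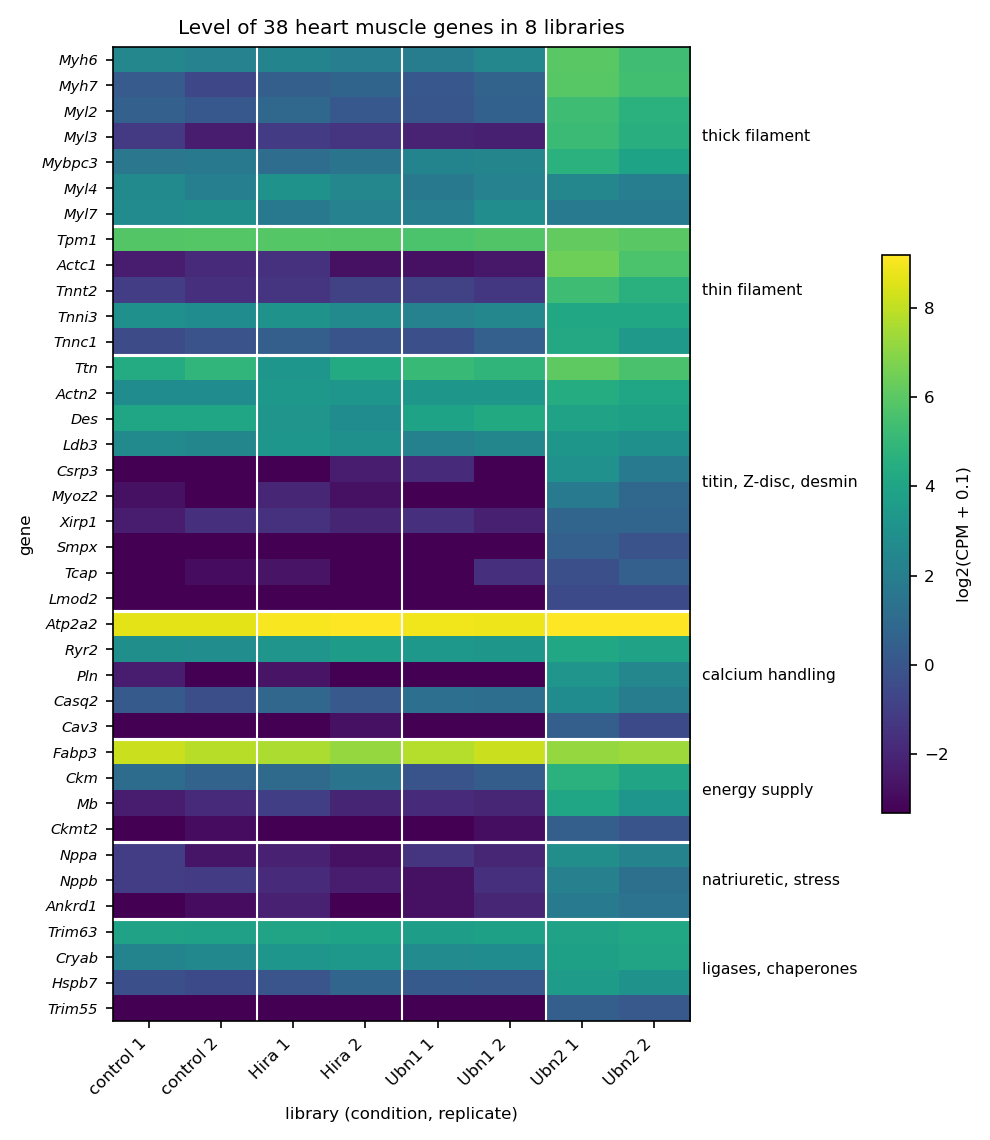
Level of each of the 38 heart muscle genes (rows, grouped by role and ordered by their level after Ubn2 depletion) in each of the 8 libraries (columns), as log2 of CPM plus 0.1. The 2 Ubn2-depleted columns at the right are brighter for 33 genes, and Fabp3, Myl7 and Des are darker there.

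Of the thick filament genes, both ventricular-type myosin heavy chains were high after Ubn2 depletion. Myh6, the alpha heavy chain of the adult mouse ventricle, was at 5.45 and 4.53 CPM in the controls, 4.84 and 3.94 with Hira depleted, 3.83 and 5.38 with Ubn1 depleted, and 63.1 and 41.0 with Ubn2 depleted. The first 6 libraries overlapped and the Ubn2-depleted pair stood apart from all of them, 10.4-fold above control. Myh7, the beta heavy chain that predominates in the fetal mouse ventricle, was at 1.12 and 0.566 CPM in the controls and at 61.9 and 42.2 CPM after Ubn2 depletion, a 61.7-fold difference, with 0.958 to 1.52 CPM in the other 4 libraries. The means of Myh6 and Myh7 after Ubn2 depletion, 52.0 ± 15.6 and 52.0 ± 13.9 CPM (SD, n = 2), were indistinguishable, whereas in control cells Myh6 was the higher of the pair. These neighbours lie on the minus strand of chr14 at 54941921-54966927 (Myh6) and 54970684-54994626 (Myh7) in GRCm38. Their transcripts share much sequence. Of all 50-base words of the Myh6 transcript 22.6% also occur in Myh7, and 22.2% of those of Myh7 occur in Myh6, so a part of their reads cannot be assigned to one of them from such words alone.

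The ventricular light chains followed the heavy chains. Myl2, the regulatory light chain of the ventricle, was at 1.31 and 1.01 CPM in the controls and at 39.0 and 25.3 CPM after Ubn2 depletion (27.7-fold). Myl3, the essential light chain of the ventricle and of slow skeletal muscle, had 7 and 3 counts in the controls, between 3 and 12 in the Hira- and Ubn1-depleted libraries, and 811 and 445 after Ubn2 depletion (138-fold). Both Ubn2-depleted libraries were above the other 6 for both genes.

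The atrial light chains were not higher after Ubn2 depletion. Myl4, the essential light chain of the atrium and of fetal muscle, was at 6.23 and 4.18 CPM in the controls and at 5.38 and 3.98 CPM after Ubn2 depletion, so the groups overlapped. Myl7, the regulatory light chain of the atrium, was at 6.38 and 7.39 CPM in the controls and at 3.63 and 3.52 CPM after Ubn2 depletion, below both controls at 0.519 of their mean. Mybpc3, which codes for the cardiac myosin binding protein C, was at 2.97 and 3.27 CPM in the controls and at 25.6 and 15.2 CPM after Ubn2 depletion (6.54-fold).

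The thin filament held the gene with the highest fold that does not rest on under 4 control counts. Actc1, the cardiac alpha actin (chr2:114047282-114053548, minus strand), had 2 and 6 counts in the controls, 8 and 1 with Hira depleted, 1 and 2 with Ubn1 depleted, and 1856 and 975 with Ubn2 depleted. The Ubn2-depleted libraries were at 85.3 and 49.7 CPM, 472-fold above control. Tnnt2, the cardiac troponin T that ties the troponin complex to tropomyosin, had 7 to 10 counts in each of the other 6 libraries and 847 and 473 after Ubn2 depletion (103-fold). Tnnc1, the calcium-binding troponin C of heart and slow muscle, was at 0.633 and 0.817 CPM in the controls and at 18.7 and 10.7 CPM after Ubn2 depletion (20.3-fold). Tnni3, the inhibitory troponin of the adult heart, already had 7.69 and 6.66 CPM in the controls and reached 17.4 and 17.1 CPM after Ubn2 depletion, only 2.40-fold more. Tpm1, an alpha tropomyosin also made in non-muscle cells, was at 57.5 and 59.2 CPM in the controls and at 71.8 and 63.5 CPM after Ubn2 depletion (1.16-fold).

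Among the genes of titin, the Z-disc and the intermediate filament, those that were abundant in control cells had small folds and those near 0 had large ones. Ttn codes for titin, the spring that spans from the Z-disc to the middle of the sarcomere. It was at 20.8 and 29.5 CPM in the controls and at 67.3 and 47.9 CPM after Ubn2 depletion (2.29-fold). Actn2, the alpha-actinin that crosslinks actin at the Z-disc, was at 6.57 and 6.73 CPM in the controls and at 21.01 and 16.7 CPM after Ubn2 depletion (2.83-fold). Ldb3, a Z-disc protein with PDZ and LIM domains, was at 6.18 and 5.28 CPM in the controls and at 9.70 and 7.54 CPM after Ubn2 depletion. Its level was about the same after Hira depletion, at 9.38 and 7.68 CPM. Des, the intermediate filament protein desmin, was slightly lower after Ubn2 depletion, with 14.8 and 13.7 CPM against 16.5 and 17.1 CPM.

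The remaining 6 genes of this group had at most 8 counts in any library outside the Ubn2-depleted pair. Csrp3, the muscle LIM protein, had 0 counts in both controls, at most 4 in any Hira- or Ubn1-depleted library, and 174 and 70 after Ubn2 depletion. Against a floor of 3 counts in each control library this is at least 48.1-fold higher. Smpx had 0 counts in the other 6 libraries and 29 and 16 after Ubn2 depletion (at least 8.94-fold higher). Lmod2, which lengthens thin filaments, had 0 counts in the same 6 libraries and 13 and 12 after Ubn2 depletion (at least 5.03-fold higher). Myoz2 and Tcap, partners of alpha-actinin and titin at the Z-disc, had a single count each over the controls. Their ratios of pooled counts, with exact 95% intervals, were 135 (23.8 to 5397) for Myoz2 and 53.1 (9.03 to 2149) for Tcap. Xirp1 had 2 and 7 counts in the controls and 35 and 31 after Ubn2 depletion (10.0-fold).

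Calcium handling genes showed the same division. Pln, which codes for phospholamban, had 2 and 0 counts in the controls, 2 and 0 after Hira depletion, 0 in both Ubn1-depleted libraries, and 196 and 108 after Ubn2 depletion. The ratio of pooled counts was 192 with an exact interval of 52.8 to 1595. Pln (chr10:53337667-53345987, plus strand) shares exon sequence with Gm47644, on the other strand, which had 2 and 0 counts in the controls and 169 and 85 after Ubn2 depletion. The strand setting of the counting is not given in the sources used here, so reads of this pair cannot be told apart. Casq2, the calcium buffer calsequestrin of the heart, was at 1.07 and 0.692 CPM in the controls and at 6.57 and 3.77 CPM after Ubn2 depletion (5.87-fold). Cav3, the caveolin of muscle, had 0 counts in the controls and 28 and 12 after Ubn2 depletion (at least 7.90-fold higher). Ryr2, the ryanodine receptor of the heart, went from 7.35 and 6.92 CPM to 17.3 and 14.5 CPM (2.23-fold). Atp2a2, the calcium ATPase that pumps calcium into the endoplasmic reticulum of most cells, was at 412 and 410 CPM in the controls and at 570 and 582 CPM after Ubn2 depletion.

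The genes of energy supply included both a very large and an opposite difference. Mb, which codes for the oxygen store myoglobin, had 2 and 6 counts in the controls and 352 and 184 after Ubn2 depletion (89.4-fold). Ckm, the cytosolic creatine kinase of muscle, was at 2.04 and 1.48 CPM in the controls and at 25.1 and 15.5 CPM after Ubn2 depletion (11.5-fold). Ckmt2, the mitochondrial creatine kinase of muscle, had 0 and 1 counts in the controls and 28 and 17 after Ubn2 depletion, a pooled ratio of 56.9 (9.71 to 2299). Fabp3, a fatty acid binding protein of heart that ESCs also transcribe, was at 287 and 231 CPM in the controls and at 145 and 165 CPM after Ubn2 depletion, 0.599 of the control mean. Of the 50-base words of Fabp3, 29.2% are shared with its pseudogene Fabp3-ps1, so its counts could be split with that gene.

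The natriuretic peptides and the stress protein Ankrd1 were all higher in the Ubn2-depleted libraries. Nppa, the atrial natriuretic peptide that is also made by the fetal ventricle, had 8 and 2 counts in the controls and 158 and 92 after Ubn2 depletion (26.4-fold). Nppb, the B-type peptide, had 8 and 11 counts in the controls, 1 to 6 in the Hira- and Ubn1-depleted libraries, and 94 and 46 after Ubn2 depletion (9.07-fold). Ankrd1, a cardiac ankyrin repeat protein, had 0 and 1 counts in the controls and 79 and 52 after Ubn2 depletion (pooled ratio 166, 29.2 to 6597).

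The last group holds ubiquitin ligases of muscle and small heat shock proteins. Trim55 had 0 counts in the other 6 libraries and 28 and 20 after Ubn2 depletion (at least 9.60-fold higher), whereas its relative Trim63, the atrophy ligase MuRF1, was at 14.5 and 14.4 CPM in the controls and at 14.5 and 17.5 CPM after Ubn2 depletion. Hspb7, the cardiovascular small heat shock protein, was at 0.730 and 0.597 CPM in the controls and at 11.9 and 8.51 CPM after Ubn2 depletion (15.3-fold). Cryab, the chaperone alpha B-crystallin, was at 4.92 and 5.53 CPM in the controls and at 13.7 and 15.8 CPM after Ubn2 depletion (2.82-fold). It overlaps an exon of Hspb2, and 16 of the 38 genes share exon sequence with an annotated neighbour in this way.

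**Figure D2:**
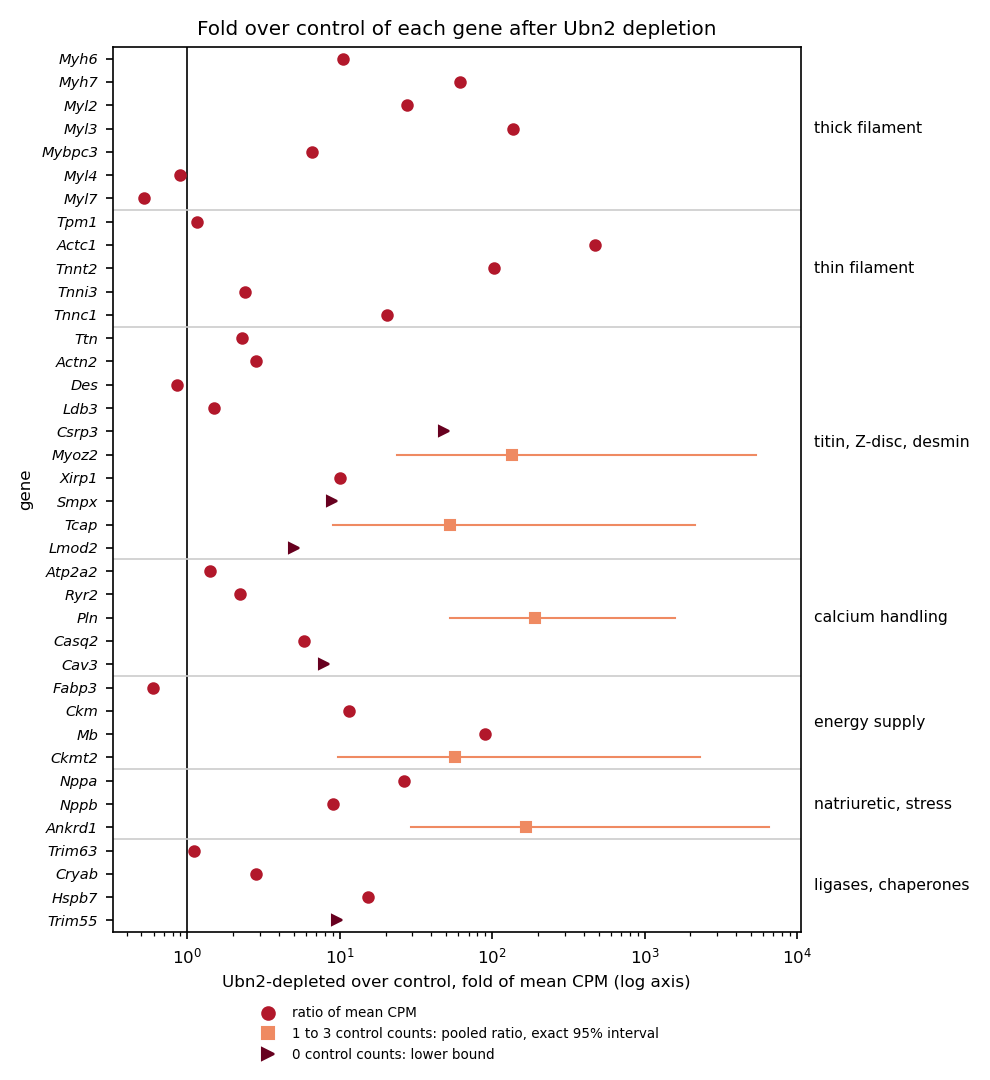
Fold of the mean CPM after Ubn2 depletion over the mean CPM of the control for each of the 38 genes, on a log axis, grouped by role. Triangles are lower bounds for the 5 genes with 0 control counts and squares with bars are pooled ratios with exact 95% intervals for the 5 genes with 1 to 3 control counts; Actc1 is at 472 and Myl7 at 0.519.

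On the scale of CPM per kilobase of exon, the order of the genes differed between control and Ubn2-depleted cells. The length used was that of all annotated exons of a gene joined, which can exceed that of its longest transcript. For Tnnt2 it was 7.752 kilobases, beside 3330 bases for the longest transcript, so the places depend in part on the annotation. In the controls Fabp3 led with 315 CPM per kilobase, followed by Atp2a2 with 67.6, Myl7 with 11.7 and Tpm1 with 8.99. After Ubn2 depletion Fabp3 (189) and Atp2a2 (94.7) still led, and the next places were taken by Actc1 (41.7), Myl2 (16.5), Myl3 (14.7) and Tnnc1 (14.1), which held places 26, 16, 23 and 14 in the controls. Myl2, Myl3 and Tnnc1 did not differ beyond the spread of their libraries. Titin RNA, from the gene with the longest exonic sequence of the list, was at 0.493 CPM per kilobase after Ubn2 depletion, in place 34 of the 38.

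The summed level of the 38 genes was 871 and 818 CPM in the controls, 909 and 886 in the Hira-depleted, 882 and 952 in the Ubn1-depleted and 1445 and 1264 in the Ubn2-depleted libraries. This sum is carried by Atp2a2, Fabp3 and Tpm1, the 3 genes over 30 CPM in the controls. Without these 3, a choice made after seeing the data, the sums were 114 and 118 CPM in the controls, 110 and 114 in the Hira-depleted, 121 and 131 in the Ubn1-depleted and 658 and 454 in the Ubn2-depleted libraries, 4.78-fold above control. The sum of the Ubn2-depleted libraries exceeded those of the other 6 libraries in both cases.

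The 2 Ubn2-depleted libraries differed from each other over these genes. Replicate 1 was 1.45 times as high as replicate 2 in the sum without the 3 abundant genes. Gene by gene, among the 33 members with at least 20 counts in each Ubn2-depleted library, the ratio of replicate 1 to replicate 2 in CPM had a median of 1.40 and ran from 0.828 (Trim63) to 2.24 (Csrp3), and 20 of the 33 were above 1.3. Over all 15562 genes with as many counts, the median was 1.00, the 5th to 95th percentiles were 0.744 to 1.303, and 5.12% lay above 1.3. The rule for the members does not use this ratio, but it comes from the same 2 libraries.

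Members with large folds mostly had ratios well above 1. Of the 16 members more than 10-fold above control that could be compared, 15 were above 1.3, and for 14 the exact 95% interval of the ratio lay above 1. Their median was 1.61, from 1.02 (Xirp1) to 2.24. The intervals here cover counting error only, and over 17900 genes the Ubn2-depleted libraries differed by more than that (chi-square per degree of freedom 14.2). How many of all genes had an interval apart from 1 was not counted. Actc1 was at 1.72 (1.59 to 1.86), Myl3 at 1.64 (1.46 to 1.85), Tnnt2 at 1.61 (1.44 to 1.81), Mb at 1.73 (1.44 to 2.07) and Myh7 at 1.47 (1.35 to 1.60). The 17 other members that could be compared had a median of 1.19 and spread from 0.828 (Trim63) to 1.84 (Nppb), with 5 above 1.3, and their exact 95% intervals lay above 1 for 9 and below 1 for 2. Among those with small folds Atp2a2 was at 0.979 (0.955 to 1.00) and Tnni3 at 1.01 (0.874 to 1.18), whereas Ttn was at 1.40 (1.29 to 1.53), Myl4 at 1.35 (1.01 to 1.83) and Actn2 at 1.26 (1.09 to 1.46). When the control mean was subtracted first, an alternative chosen after seeing the data, the ratio over 28 members had a median of 1.63. The 1555 genes outside the list that were called higher after Ubn2 depletion had a median ratio of 1.02, with 9.90% above 1.3. That call needed only a 1.5-fold change, and genes outside the list more than 10-fold above control were not compared as a group. Of these, Hba-a1 was at 2.45, Cdh5 at 2.33, Fhl2 at 1.63, Lrrc10 at 1.04 and Acta1 at 0.882, named after their values were seen. Among the 1555 genes, 19 from the other heart lists described below had a median of 1.32, with 11 above 1.3. A further 17 from the lists of other tissues had a median of 1.40, with 9 above 1.3. In the other groups the ratio of the libraries over the members had medians of 1.04 (control, 18 members), 1.02 (Hira, 20 members) and 0.900 (Ubn1, 19 members). Above 1.3 were 4 members in control, 6 in Hira and 0 in Ubn1. This limit looks in 1 direction only, so the 0 does not show that the Ubn1-depleted libraries were alike. Of members named after their values were seen, Myl7 was at 3.92 and 6.95 CPM there and Fabp3 at 222 and 293 CPM. Ttn went the other way, at 34.3 and 29.1 CPM. Members equally far below 1 were not counted, nor was the share of all genes above 1.3 in these groups. What sets the difference between the Ubn2-depleted libraries was not tested.

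**Figure D3:**
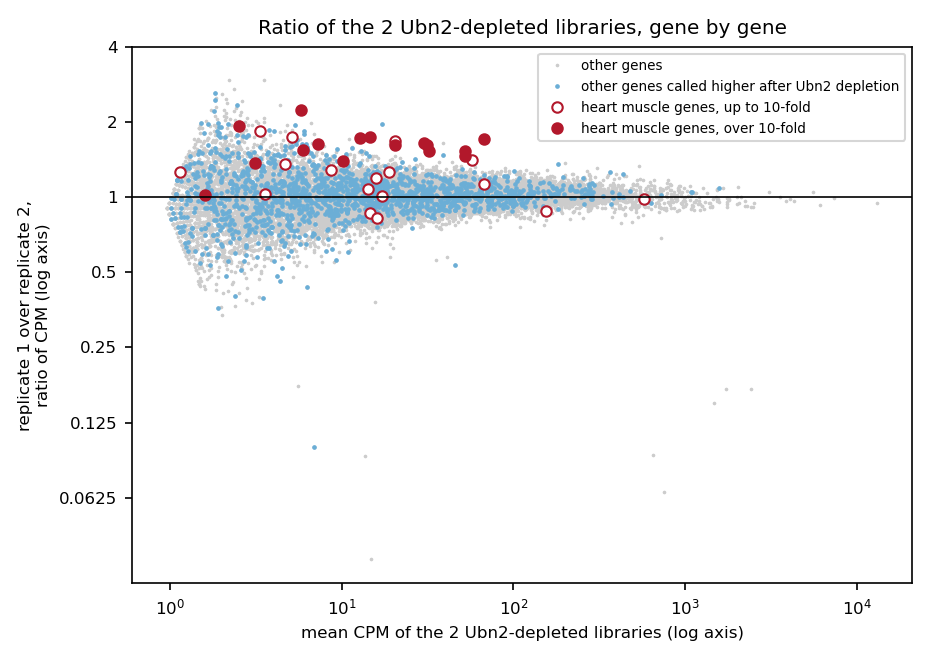
Ratio of CPM in Ubn2-depleted replicate 1 to replicate 2 against the mean CPM of the pair, both on log axes, for every gene with at least 20 counts in each. Filled circles are members more than 10-fold above control, open circles the other members, blue points other genes called higher after Ubn2 depletion and grey points all other genes; 15 of the 16 filled circles lie above 1.3.

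Promoters were read from RefSeq (GRCm38.p6) for 33 of the 38 genes, as the 250 bases before the annotated start, to see what genes that were high together share in sequence. The CArG box, the known binding sequence of serum response factor, occurred in the promoters of Actc1, Ldb3, Myl3 and Myl7, that is in 12.1% of the 33 against 1.62% of 27025 genes. The 4 stretches, from 30 bases before the box to the last base before the start, are printed 5′ to 3′ with the box in capitals, because they hold the gene with the highest fold and also Myl7, the gene with the lowest. Ldb3 has 2 annotated starts, and the same box begins at base -35 from the start used here and at base -109 from the other.
Actc1 (chr2:114052876-114052952, minus strand): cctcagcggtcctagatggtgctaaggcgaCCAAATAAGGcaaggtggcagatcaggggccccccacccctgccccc
Myl3 (chr9:110763563-110763677, plus strand): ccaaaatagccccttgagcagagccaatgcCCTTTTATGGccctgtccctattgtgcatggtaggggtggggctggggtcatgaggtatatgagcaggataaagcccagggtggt
Ldb3 (chr14:34588682-34588746, minus strand): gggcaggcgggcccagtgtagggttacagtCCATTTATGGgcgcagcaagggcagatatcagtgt
Myl7 (chr11:5898783-5898873, minus strand): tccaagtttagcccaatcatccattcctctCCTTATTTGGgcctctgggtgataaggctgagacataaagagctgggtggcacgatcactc
The presence of the box did not order the genes by their fold after Ubn2 depletion, which was 472 for Actc1, 138 for Myl3, 1.504 for Ldb3 and 0.519 for Myl7.

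The MEF2 box occurred in the promoters of Casq2, Mybpc3, Myoz2 and Ttn, also 12.1% of the members, against 1.99% of all genes. The MCAT element CATTCCT occurred in those of Ankrd1, Myh6, Myl3, Myl7, Nppb, Tnnt2 and Tpm1, 21.2% against 5.19%. It does not overlap the CArG box where a promoter holds both (Myl3 and Myl7). The letters TATAAA occurred in 15.2% of the members and 14.3% of all genes. Both strands were searched, and a match is a description of the letters and not a site in use.

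Hira depletion was compared with control by the quasi-likelihood test of edgeR over 19035 genes, where a call needed both a Benjamini-Hochberg adjusted p below 0.05 and more than 1.5-fold change. Of the 38 heart muscle genes 21 had enough counts to test, and the other 17 had at most 13 counts in any of these 4 libraries. One was called higher and 4 lower, that is 4.76% and 19.0% of the 21, beside 10.8% and 5.40% of all genes tested. The median log2 fold change of the 21 was 0.37, beside 0.01 over all genes tested. The same control libraries entered the contrast that chose the members, so nothing is read from these differences to all genes. The number called higher was 3 without control replicate 1, 2 without Hira-depleted replicate 1 and 4 without Hira-depleted replicate 2, and DESeq2 called 2 lower.

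Des fell by 1.09 on the log2 scale (SE 0.16, adjusted p = 2.25e-05 in edgeR), from 16.5 and 17.1 CPM in the controls to 9.05 and 6.74 CPM, with no overlap. Myl7 was at 3.24 and 4.55 CPM against 6.38 and 7.39 CPM, a log2 fold change of -0.86 (SE 0.22, adjusted p = 0.00433). Ttn was at 9.56 and 20.2 CPM against 20.8 and 29.5 CPM, a change of -0.82 (SE 0.22, adjusted p = 0.00541). Its Hira-depleted libraries differed from each other by more than 2-fold, and without Hira-depleted replicate 1 the change was -0.35 (adjusted p = 0.0593), without control replicate 2 it was -0.53 (adjusted p = 0.0103, under the fold limit), and DESeq2 gave an adjusted p of 0.335. Fabp3 was at 200 and 147 CPM against 287 and 231 CPM, a change of -0.59 (SE 0.11, adjusted p = 0.000346) that lay just past the fold limit. Without control replicate 1 it was -0.43, without Hira-depleted replicate 2 it was -0.39, and DESeq2 gave an adjusted p of 0.0778, so that Fabp3 was no longer called.

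Cryab was the only member called higher after Hira depletion, with 9.50 and 10.2 CPM against 4.92 and 5.53 CPM (log2 fold change 0.89, SE 0.18, adjusted p = 0.000677). Atp2a2, Ryr2, Actn2 and Ldb3 had adjusted p-values under 0.05 with changes under 1.5-fold. Atp2a2 was at 540 and 567 CPM against 412 and 410 CPM (log2 fold change 0.41, SE 0.07, adjusted p = 0.00017). Actn2 was at 10.2 and 9.39 CPM against 6.57 and 6.73 CPM (0.55, SE 0.17, adjusted p = 0.0176). Myh6 at -0.18 (SE 0.22), Myl2 at 0.25 (SE 0.39) and Tnni3 at 0.00 (SE 0.19) did not pass the test. Actc1, Tnnt2 and Myl3 had too few counts to be tested.

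Ubn1 depletion was tested in the same way against the same 2 control libraries, over 18373 genes. Again 21 members could be tested. Casq2 was called higher, with 2.28 and 2.23 CPM against 1.07 and 0.692 CPM (log2 fold change 1.39, SE 0.37, adjusted p = 0.0185 in edgeR), and none was called lower, beside 1.53% and 1.56% of all genes. At an unadjusted p under 0.05 there were 6 higher and 1 lower, and DESeq2 called 0 in either direction, giving no adjusted p for Casq2. Without control replicate 2 the change of Casq2 was 1.06 (adjusted p = 0.248). Actn2 reached an adjusted p of 0.0493 with a change of 0.56 (SE 0.18), under the fold limit. The median log2 fold change of the 21 was 0.05, beside 0.00 over all genes tested, with the same limit from the shared controls.

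**Figure D4:**
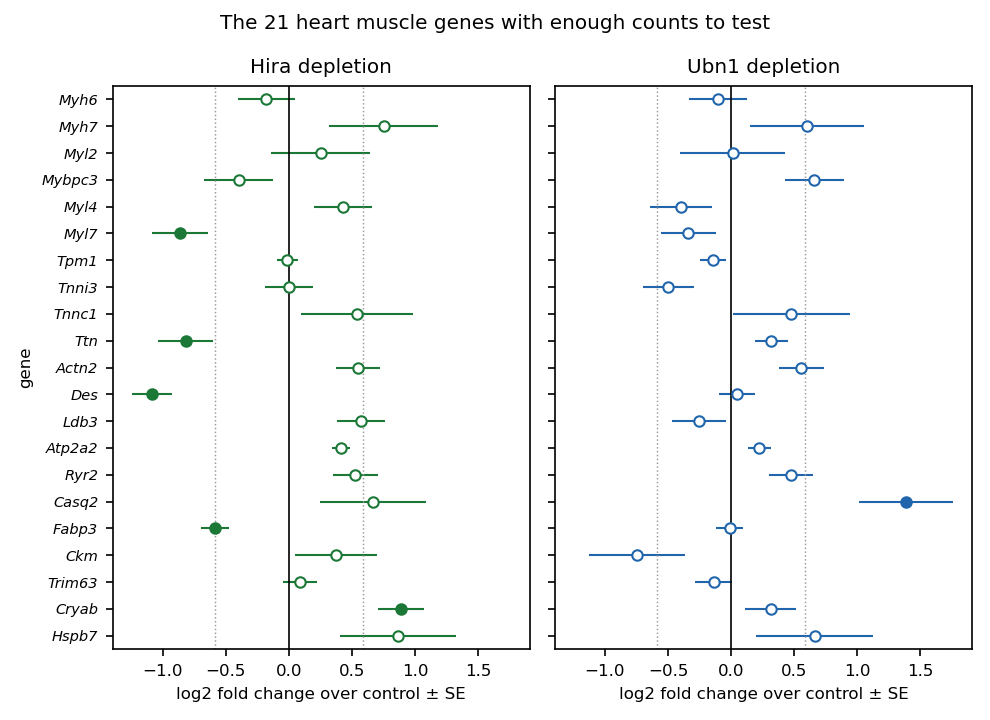
Log2 fold change over control with its standard error for the 21 heart muscle genes with enough counts, after Hira depletion (left) and Ubn1 depletion (right), each with 2 libraries against the same 2 controls. Filled circles are called and dotted lines mark 1.5-fold; Des, Myl7, Ttn, Fabp3 and Cryab are filled on the left and Casq2 on the right.

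Other genes of the heart were taken as 3 lists that hold none of the 38, with 23 transcription factors, 22 channel and junction genes and 29 further muscle genes. After Ubn2 depletion 21 of the 51 that could be tested were called higher and 1 lower by edgeR, beside 9.59% and 8.75% of the 18219 genes tested. The members had been chosen on these same libraries, so these lists are no independent sample of them. Over all genes tested 10.8% were called higher and 5.40% lower after Hira depletion, and 1.53% and 1.56% after Ubn1 depletion. After Hira depletion 13 of 52 were called higher and 3 lower, and the number higher was 5 without control replicate 2 and 6 in DESeq2. After Ubn1 depletion 2 of 42 were called higher and 1 lower, and these counts lay between 0 and 2 with 1 library left out.

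Of the further muscle genes 12 of 22 were called higher after Ubn2 depletion and 1 lower (Myh7b), and the median log2 fold change was 1.07. The genes of this list with the highest level were not among the 12, since Actn1 was at 245 and 240 CPM against a control mean of 244 CPM, and Alpk3 had a log2 fold change of 0.00 (SE 0.11). Among the highest folds, named after their values were seen, were those of Fhl2, a LIM protein of the heart, with 4 and 7 counts in the controls and 168 and 93 after Ubn2 depletion (log2 fold change 4.86, SE 0.39), and Synpo2l, a Z-disc protein, with 5 counts in both controls and 79 and 40 after Ubn2 depletion (3.85, SE 0.48). Cox6a2, the muscle form of a subunit of cytochrome c oxidase, had 7 and 16 counts in the controls and 153 and 71 after Ubn2 depletion. In all 3 the Ubn2-depleted libraries exceeded the other 6.

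Of the channel and junction genes 5 of 14 were called higher after Ubn2 depletion and 0 lower by edgeR (4 lower at an unadjusted p under 0.05, 0 in DESeq2). Gja1, the gap junction protein connexin 43, was at 132 and 119 CPM against 65.6 and 59.3 CPM in the controls (log2 fold change 1.01, SE 0.08), and it was also called higher after Hira depletion, at 92.6 and 107 CPM. Jph2, which holds the sarcoplasmic reticulum at the T-tubule, was at 6.30 and 3.72 CPM after Ubn2 depletion and at 3.97 and 4.03 CPM after Hira depletion against 1.70 and 1.45 CPM, and it was called in both. Sln, the restrainer of the calcium ATPase in the atrium, had 7 and 0 counts after Ubn2 depletion and 0 in the other 6 libraries.

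Of the transcription factors of the heart 4 of 15 were called higher (Tbx3, Smyd1, Mesp2 and Isl1) after Ubn2 depletion and 0 lower by edgeR (1 lower at an unadjusted p under 0.05, 0 in DESeq2). DESeq2 called 2 higher, Tbx3 and Smyd1. Smyd1, a methyltransferase of heart and skeletal muscle, was at 24.8 and 18.7 CPM against 4.24 and 4.18 CPM in the controls (log2 fold change 2.37, SE 0.17), and was also called higher after Hira depletion (7.26 and 9.87 CPM) and Ubn1 depletion (8.12 and 8.41 CPM). Tbx3 was at 275 and 268 CPM against 150 and 181 CPM. The factors described next were also named after their values were seen. Srf, the serum response factor, was at 47.2 and 48.5 CPM after Ubn2 depletion against 39.9 and 39.3 CPM in the controls, a log2 fold change of 0.27 (SE 0.09, adjusted p = 0.019) under the fold limit, and Mef2a was at 12.5 and 12.6 CPM against 14.2 and 12.9 CPM. The others were at lower levels. Hand2 had 0 counts in both controls, 0 in both Ubn1-depleted libraries, 1 in each Hira-depleted library, and 11 and 9 in the Ubn2-depleted pair. Myocd had 0 counts in both controls, 18 and 3 after Hira depletion, 1 in each Ubn1-depleted library and 11 and 3 after Ubn2 depletion. Hand2 and Myocd had too few counts to be tested after Ubn2 depletion. Nkx2-5 had 24 and 12 counts after Ubn2 depletion and 8 and 15 in the controls (adjusted p = 0.147). Gata4 had a log2 fold change of 0.20 (SE 0.23, adjusted p = 0.519). Tbx5 and Mef2c had at most 6 counts in either Ubn2-depleted library. Tbx20 was called higher after Hira depletion, at 4.21 and 5.98 CPM against 1.07 and 1.26 CPM, but was at 1.01 and 1.12 CPM after Ubn2 depletion.

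Markers of 12 other tissues or cell types, 130 genes in all with 11 at 0 counts in every library, were counted beside the members. After Ubn2 depletion 19 of 66 tested were called higher and 7 lower, beside 9.59% and 8.75% of all genes tested. After Hira depletion 15 of 62 were called higher and 0 lower by edgeR, beside 10.8% and 5.40% of all genes tested. At an unadjusted p under 0.05 there were 7 lower, and DESeq2 called 0 lower. After Ubn1 depletion 1 of 58 was called higher and 3 lower, but none was called lower without control replicate 1 or 2 or Ubn1-depleted replicate 1. Over all genes tested 1.53% were called higher and 1.56% lower after Ubn1 depletion. The part of these markers in the results on the members was not tested.

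Some markers of the vessels, stroma and blood were near 0 outside the Ubn2-depleted libraries in the same way as the members. Acta2, the actin of smooth muscle and of the embryonic heart, had 0 and 3 counts in the controls, at most 6 after Hira or Ubn1 depletion, and 233 and 143 after Ubn2 depletion. Col3a1, a fibrillar collagen of stroma, had 0 counts in the controls and 147 and 81 after Ubn2 depletion. The adult beta globin Hbb-bs had 0 counts in the controls and 75 and 45 after Ubn2 depletion, while the embryonic globins Hbb-y, Hbb-bh1 and Hba-x had 0 counts in the Ubn2-depleted libraries. Fabp4, a fatty acid binding protein of fat and capillaries, had 0 counts in the controls and 57 and 27 after Ubn2 depletion.

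The sums of whole lists, from which no abundant gene was left out, did not move with these genes in most cases. The summed level of the 12 endothelial markers was 195 and 181 CPM in the controls and 181 and 179 after Ubn2 depletion, with Pecam1 and Egfl7 abundant in every library and 4 of 11 called higher (Tek, Kdr, Esam and Cdh5) and 2 lower (1 lower in DESeq2). The 14 stromal markers summed to 133 and 131 CPM in the controls and to 124 and 113 after Ubn2 depletion. Of 10 tested, 3 were called higher (Col3a1, Col1a2 and Postn) and 2 lower (Thy1 and Fbln2). Fstl1 was the largest part of the sum, at 75.6 and 76.5 CPM in the controls and 69.1 and 63.2 after Ubn2 depletion. Of genes named after their values were seen, Col1a2 had 6 and 12 counts in the controls and 69 and 35 after Ubn2 depletion. Postn had 0 counts in the controls and 29 and 14 after Ubn2 depletion. The 10 smooth muscle markers summed to 66.7 and 66.3 CPM in the controls and to 76.7 and 74.4 after Ubn2 depletion, with 2 of 9 called higher (Acta2 and Tagln, of which DESeq2 called Acta2), and Myh11 had 27 and 13 counts against 26 and 40. The 6 epicardial markers, at 20.3 and 21.3 CPM in the controls and 17.3 and 19.7 after Ubn2 depletion, had 1 of 5 higher and 1 lower.

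The erythroid list of 12 genes went from 2.53 and 2.64 CPM to 10.0 and 6.93 CPM after Ubn2 depletion. Of 5 tested, 2 were called higher, the globins Hbb-bs and Hba-a1, and 0 lower by edgeR (1 lower at an unadjusted p under 0.05, 0 in DESeq2). Slc4a1 had 21 and 30 counts in the controls and 5 and 12 after Ubn2 depletion. Klf1 had 13 and 27 counts in the controls and 20 and 18 after Ubn2 depletion. The 5 adipose markers went from 0.243 and 0.157 CPM to 2.99 and 1.48 CPM, which is Fabp4 almost alone, with Adipoq at 1 and 0 counts. The 12 leukocyte markers went from 33.0 and 32.9 CPM to 65.1 and 68.5 CPM through Cd68, a lysosomal protein of macrophages, while Ptprc, the pan-leukocyte marker, had 0 counts in both Ubn2-depleted libraries.

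Skeletal muscle shares many of the genes of this group. Of the 30 skeletal markers 5 of 16 were called higher and 2 lower after Ubn2 depletion by edgeR, and DESeq2 called 2 higher (Acta1 and Tnni1) and 1 lower (Myh3). Tnni1, the slow skeletal troponin I that the fetal heart also makes, was at 0.389 and 0.472 CPM in the controls and at 22.8 and 11.6 CPM after Ubn2 depletion (log2 fold change 5.28, SE 0.33). The regulators Myod1, Myf5 and Myf6 and the fast myosins Myh1 and Myh2 had 0 counts in both Ubn2-depleted libraries, and Myf5 and Myh1 had 0 in every library. Myog had 1 and 3 counts in the Ubn2-depleted libraries. Pax7, Cacna1s and Casq1 were called higher by edgeR alone. Of these, Pax7 had 5 and 4 counts in the controls and 13 and 17 after Ubn2 depletion (log2 fold change 2.03, SE 0.65). Mylpf, Actn3 and Ryr1, the most abundant of the list, had log2 fold changes of 0.23, -0.18 and -0.13. For the liver, Alb had 2 and 6 counts and Apoc3 had 0 after Ubn2 depletion. Of the lung markers Sftpc had 1 count in each Ubn2-depleted library and Scgb1a1 had 0. Umod of the kidney and Dsg1a of the skin had 0 counts there. The sums of these 4 lists were 2.71 and 3.31 CPM (liver, 1.95 to 2.00 in the controls), 1.33 and 1.73 CPM (lung, 0.779 to 1.10), 75.0 and 74.6 CPM (kidney, 89.9 to 103, from Nphs1) and 5.33 and 5.25 CPM (skin, 3.89 to 4.37).

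**Figure D5:**
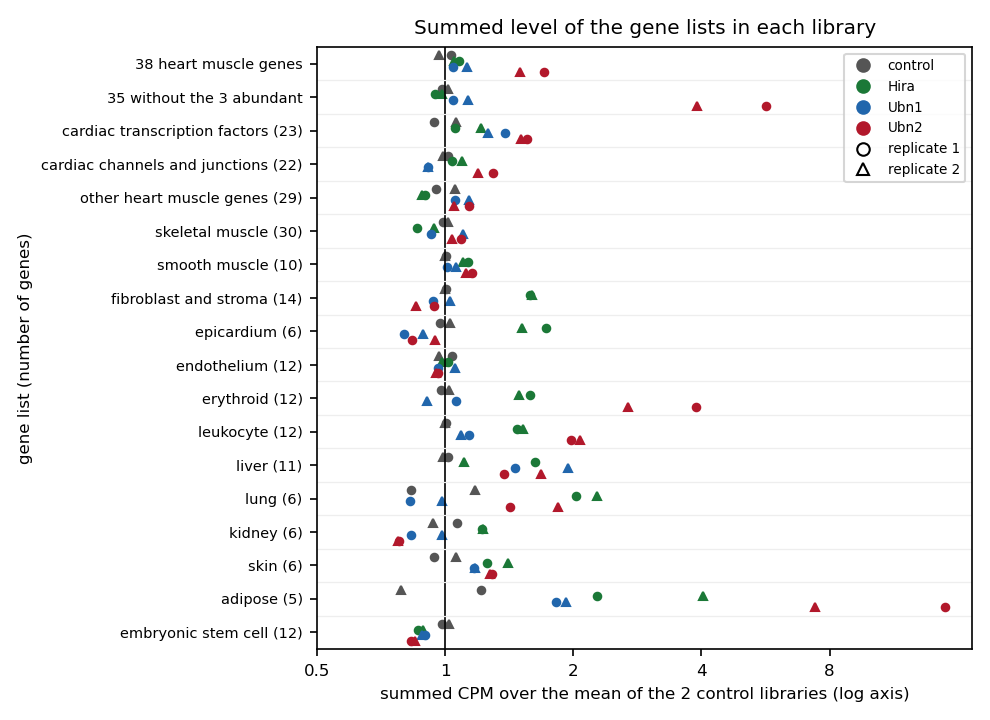
Summed CPM of each gene list in each library, divided by the mean of the 2 controls, on a log axis, with colours for the groups and symbols for the replicates. The 35 heart muscle genes without the 3 abundant ones, the erythroid list and the adipose list reach the highest ratios after Ubn2 depletion, and the stromal, epicardial, erythroid, leukocyte, lung and adipose lists are at 1.48 times the control mean or higher in both Hira-depleted libraries. Abundant genes were left out only in the row of 35 genes.

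Genes counted almost only after Ubn2 depletion were collected from the whole table, with at least 20 counts in each Ubn2-depleted library and at most 3 in each of the other 6. Only 7 of 15562 genes (0.0450%) met this, and 2 of them were members, Pln and Trim55. The other 5 were Gm47644, which overlaps Pln, Col3a1, Hbb-bs, Fabp4 and Sash3, an adapter protein of lymphocytes, with 57 and 33 counts. With at most 10 counts in each other library there were 25 of the 15562 genes, and 9 of them were members: Actc1, Tnnt2, Pln, Nppa, Csrp3, Ankrd1, Myoz2, Xirp1 and Trim55. The members were listed after their high counts in these libraries had been seen, so nothing is read from how many of them appear here. Among the 16 others, Gm31251 with 217 and 137 counts and Gm29015 with 170 and 83 counts overlap Myh7, and Acta2, Cdh5 and Cav1 had 376, 104 and 78 counts summed over the pair. The replicate ratio of the 7 genes ran from 1.26 (Trim55) to 1.90 (Fabp4).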

How the data were processed

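RNA-seq reads of 8 libraries were trimmed with Trim Galore, aligned to GRCm38 with STAR and counted on genes with featureCounts by the authors, who deposited raw counts in 3 tables that share their control columns (0 differing values). Versions, strand setting and treatment of reads matching several places are not given in the sources used here. The labels name 1 µg/ml puromycin, where the study's methods give a slightly lower dose and a luciferase hairpin as control.

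The members, gene lists and tests were chosen with earlier results of these data known. Groups came from the sample labels. Each depletion was compared with control in edgeR 4.0.16 (R 4.3.3, TMM, filterByExpr, quasi-likelihood test, Benjamini-Hochberg adjustment over all genes tested, 2 against 2 libraries), an exact permutation test of 2 against 2 being unable to go below p = 0.333. Members carry no test in the Ubn2 comparison. A fold against 0 control counts was taken against 3 counts in each control library, and 1 to 3 control counts give a pooled ratio with an exact binomial 95% interval. These intervals cover counting error only. Replicates of a group differed by more than sampling noise (chi-square per degree of freedom 6.30 to 14.2). Named genes are the 38 members, up to 4 genes of each other list with the highest level after Ubn2 depletion, genes called after Hira or Ubn1 depletion, the targeted genes and the most counted genes found almost only after Ubn2 depletion; others are named as chosen afterwards or as markers at or near 0. Positions and exon lengths are from GENCODE M21, promoters from RefSeq GRCm38.p6. The list of further muscle genes had 30 entries, of which 29 were found.

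Alternatives were DESeq2 1.42.0, its size factors, total counts, no filter on low counts, one fit of all 8 libraries, a block by replicate number, adjusted p alone, other count limits and each library left out. Tables were handled in pandas 2.3.3 and Python 3.11.15 with scipy 1.17.1, figures were drawn in matplotlib 3.10.9, and the fits were tested on simulated data.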

Additional observations from a re-analysis of the deposited data

How the results depend on the processing

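The description of the Ubn2-depleted libraries kept its direction under every alternative run. The median log2 fold over the 38 members, 3.22, was 3.22 with DESeq2 size factors, 3.26 with total counts and 2.88 to 3.45 with 1 library left out, and 30 to 31 members stayed over 1.5-fold. The ratio of summed CPM was 1.60 over all 38 and 4.78 without the 3 abundant members. The median ratio of the Ubn2-depleted libraries, 1.40, was 1.40 with at least 100 counts, 1.63 after subtracting the control mean and 1.61 for members over 10-fold, and the genes counted almost only after Ubn2 depletion went from 7 to 25 with at most 10 counts elsewhere. The alternatives with the control mean subtracted, the members over 10-fold and the 3 abundant members left out were chosen after seeing the data.

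Calls of members after Hira depletion were 5 higher by adjusted p alone, 2 higher with all 8 libraries in one fit and 2 lower in DESeq2, and 1 to 4 higher and 3 lower with 1 library left out. After Ubn1 depletion 2 were higher by adjusted p alone, 0 in DESeq2 (which gave no adjusted p for Casq2, the call in question), and 1 higher and 0 to 1 lower with 1 library left out. Of the other heart genes DESeq2 called 6 higher after Hira depletion and 1 higher and 0 lower after Ubn1 depletion, and of the tissue markers 0 higher and 0 lower after Ubn1 depletion. It gave no adjusted p for 27 to 72 of the genes in these lists, which are not counted as lost.

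With 1 library left out, the remaining library of that group is assumed to vary like the other group. Other heart genes were then called 5 to 12 higher and 2 to 3 lower after Hira depletion, 1 to 2 higher and 0 to 2 lower after Ubn1 depletion, and 19 to 23 higher and 1 to 3 lower after Ubn2 depletion. Tissue markers were called 11 to 15 higher and 0 to 3 lower after Hira depletion, 0 to 2 higher and 0 to 3 lower after Ubn1 depletion, and 16 to 21 higher and 4 to 7 lower after Ubn2 depletion. The cause of these differences was not tested.

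For libraries with equal replicate numbers, the correlation of their deviations from the group means lay between -0.0985 and 0.0978. No strong shared effect of the replicate number was seen, which does not settle whether those libraries were prepared together. With a replicate block after Ubn1 depletion 2 members were called higher, 2 other heart genes lower and 2 tissue markers higher, and the block moved no other of these counts by over 1.5 times.

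Precision was limited by depth for the 17 members with too few counts to test after Hira or Ubn1 depletion, for which an absence of change cannot be shown.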
